A study of Mus musculus with 24 samples.

Results

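Extraocular muscle of mdx mice, the muscles that move the eye, was compared between 112 and 56 days of age. The 6 arrays of this step are the 3 labelled as mdx at 112 days and the 3 labelled as mdx at 56 days, out of 24 arrays in the series, which hold 3 for each of 4 ages in mdx and in control mice. The 112-day mdx group was compared with the 56-day mdx group across 12422 probe sets, all those of the array that are not the manufacturer's controls, of which 7453 passed a filter on low signal and were tested. Beside it stand the 3 control arrays at 56 days and the 3 at 112 days, and all 24 arrays share 1 estimate of the spread. The labels give genotype and age and name no strain, sex, treatment or number of animals, and they do not say that the arrays of a group came from separate mice, so each p-value rests on the spread among these RNA samples, which may be technical, and genotype cannot be told apart from strain. Levels are intensities scaled so that every array has a mean of 500 without its lowest and highest 2%.

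The mdx mouse makes no full-length dystrophin, the protein that ties the actin skeleton of the muscle fibre to the matrix outside it, because its Dmd gene has a point mutation that ends translation early. Limb and diaphragm fibres of this mouse go through rounds of death and regeneration, with invasion by macrophages and a growing collagen matrix, whereas the extraocular muscles are largely spared. Both ages lie after weaning, so the step from 56 to 112 days covers young adult life.

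Dmd itself followed the labels of genotype. Its probe set (93623_at) read 104, 143 and 137 on the mdx arrays at 56 days and 124, 123 and 106 at 112 days, against 357, 568 and 718 on the control arrays at 56 days and 234, 371 and 443 at 112 days. The highest mdx reading was below the lowest control reading of these ages, and within mdx muscle the ages overlapped (log2 fold change of -0.10 ± 0.28, standard error (SE), adjusted p = 0.986). Markers of muscle were bright, with the troponin T gene Tnnt3 between 10840 and 19550 and myoglobin (Mb) between 8220 and 11760 over the 6 arrays. Myh3 and Myh8, the embryonic and neonatal myosin heavy chains that extraocular muscle keeps in the adult, read 4580 to 6098 and 1353 to 2034. The probe sets for Sag of photoreceptors, Cd3g of T cells, Krt14 and Krt12 of surface epithelium and Tyrp1 of pigment cells fell below the filter. Other markers of these neighbours passed it: Pmel of pigment cells read 169 to 344, and the epithelial genes Krt4, Krt6a and Dsp, given with their list, read up to 1198, 1960 and 631. Adipoq of fat cells read 965 to 1300. The 6 arrays correlated with each other with r between 0.923 and 0.964 across probe sets.

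In mdx muscle 2 genes fell between 56 and 112 days, Meg3 and Myh9, and 0 rose. That is 0.0268% of the 7453 probe sets tested by limma with Benjamini-Hochberg adjustment at an adjusted p under 0.05. At an unadjusted p under 0.05 there were 251 probe sets higher at 112 days (3.37%) and 221 lower (2.97%). All 3 arrays of 112 days lay above all 3 of 56 days for 954 probe sets (12.8%), and below them for 775 (10.4%). The median log2 fold change over all tested probe sets was 0.03, and 54.6% of them were positive. A log2 fold change of at least 1 in size was seen for 52 probe sets upward and 68 downward. Among the 4969 probe sets under the filter, which were not tested, the ages did not overlap for 274 upward and 335 downward.

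How many probe sets pass depended on which arrays estimate the spread. With the 6 mdx arrays of both ages alone, limma called 20 higher and 47 lower. These 67 included 14 of the 20 genes named by the rule of this report. That rule had picked the genes for no overlap on these same arrays, which favours them in this fit. With array weights, for which the fit did not converge, it called 122 higher and 135 lower. Genes that did not pass in the fit of 24 arrays are given below as values.

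Meg3 is a long non-coding RNA made from the maternal copy of an imprinted region on chromosome 12. It read 581, 563 and 467 at 56 days and 188, 207 and 187 at 112 days (537 ± 61 and 194 ± 11.5, SD, n = 3). The highest 112-day array stood below the lowest 56-day array by more than the spread of either group. The fall was 2.63-fold, with a log2 fold change of -1.39 ± 0.17 (SE) and an adjusted p of 0.000508 in limma. Another Meg3 probe set (160172_at) read 173, 439 and 254 at 56 days and 118, 110 and 121 at 112 days, without overlap, but its spread at 56 days was wide (log2 fold change of -1.11 ± 0.45, adjusted p = 0.712). On the called probe set (160173_at) the means in younger mdx muscle were 1602 at day 14 and 808 at day 28. In control muscle the same step was -1.46 (adjusted p = 0.000242), and the difference between the steps was 0.06 ± 0.25.

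Myh9 encodes the heavy chain of non-muscle myosin IIA, the motor of contractile actin bundles in cells such as fibroblasts, endothelium and leukocytes. It read 1449, 1251 and 1424 at 56 days and 630, 496 and 710 at 112 days, again without overlap. The fall was 2.23-fold (log2 fold change of -1.16 ± 0.21, adjusted p = 0.0443 in limma). This call was close to the threshold: the adjusted p lay between 0.0509 and 0.372 when any 1 of the 6 mdx arrays was left out. The other Myh9 probe set (102108_f_at) did not share the step, with 451, 959 and 864 at 56 days and 786, 731 and 733 at 112 days (log2 fold change of 0.05). In control muscle Myh9 fell by 0.99 on the log2 scale (adjusted p = 0.0273), so the drop was not a feature of mdx muscle alone. Its mdx mean was 1138 at 28 days and 1375 at 56 days.

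The DNA before the start of both called genes is shown with that of Col1a2, the collagen gene with the smallest p in the step, since these are the genes the results on lowered transcripts turn on. The sequences are the 250 bases before the annotated start in RefSeq on GRCm38.p6, 5′ to 3′ on the strand of the gene, at chr12:109540746-109540995 (plus strand) for Meg3, chr15:77842176-77842425 (minus strand) for Myh9 and chr6:4505368-4505617 (plus strand) for Col1a2. Capitals mark matches on either strand to the CCAAT box (letters CCAAT), to the TATA box (letters TATAAA) and to the cAMP response element (letters TGACGTCA).
Meg3: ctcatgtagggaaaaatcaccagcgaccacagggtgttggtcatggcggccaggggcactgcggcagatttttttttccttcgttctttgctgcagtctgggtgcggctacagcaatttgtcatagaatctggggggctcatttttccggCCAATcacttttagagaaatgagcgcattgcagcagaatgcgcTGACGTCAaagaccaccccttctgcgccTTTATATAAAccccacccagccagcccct
Myh9: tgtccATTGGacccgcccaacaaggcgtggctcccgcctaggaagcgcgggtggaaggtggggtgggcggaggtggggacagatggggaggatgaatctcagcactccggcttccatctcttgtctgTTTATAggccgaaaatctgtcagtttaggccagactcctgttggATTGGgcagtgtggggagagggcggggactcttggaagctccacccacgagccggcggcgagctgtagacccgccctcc
Col1a2: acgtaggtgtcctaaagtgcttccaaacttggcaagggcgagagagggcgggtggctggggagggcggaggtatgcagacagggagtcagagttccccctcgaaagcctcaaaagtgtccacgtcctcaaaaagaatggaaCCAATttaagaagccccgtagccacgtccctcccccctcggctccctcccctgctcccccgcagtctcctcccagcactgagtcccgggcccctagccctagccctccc
The Meg3 window holds 1 CCAAT box, 2 overlapping TATA box matches on opposite strands that end 20 and 24 bases before the start, and 1 cAMP response element that ends 50 bases before it. The Myh9 window holds 2 CCAAT boxes and 1 TATA box, all on the opposite strand, and the Col1a2 window 1 CCAAT box. Of 32851 RefSeq windows of this length, 33.9% hold a CCAAT box, 12.4% a TATA box and 1.55% a cAMP response element, counting both strands. RefSeq lists another Meg3 start, whose window holds none of these letters, and the match of a motif is a description of the sequence.

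Besides these 2, the genes with the smallest p whose arrays did not overlap were named until each direction held 10. None of these 18 passed the test (adjusted p from 0.0584 to 0.39), and their values follow. Wnk1, a kinase that controls chloride transport and cell volume, read 272, 348 and 163 at 56 days and 1286, 1363 and 1004 at 112 days on probe set 161270_i_at (log2 fold change of 2.20 ± 0.41, adjusted p = 0.0584). All 3 later arrays stood far above the earlier ones. A further Wnk1 probe set (160739_at) had 1.88 ± 0.39, while 94003_at, which read 2838 to 3567 over the 6 arrays, had 0.12 ± 0.17. In control muscle Wnk1 rose by 3.00 (adjusted p = 0.000734), from 266, 133 and 111 to 1578, 1150 and 1452.

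Ddx6, an RNA helicase of the bodies where messenger RNA is stored and decayed, read 320, 421 and 273 at 56 days and 1219, 1115 and 999 at 112 days (1.69 ± 0.45). Its probe set 93965_r_at had 1.24 ± 0.48 and 96731_at had 0.20 ± 0.19. Dhx36, a helicase that unwinds G-quadruplexes, read 276, 459 and 275, then 762, 769 and 829 (1.23 ± 0.27). The ages overlapped for Ddx6 on 96731_at, but not on its other probe sets or for Dhx36. The naming rule required no overlap for Dhx36 and for the Ddx6 probe set printed by array. Hira, a chaperone that deposits histone H3.3, had 1.83 ± 0.51, and the pseudogene Snrp1c-ps2, whose probes may also match its parent gene, had 1.83 ± 0.49.

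The other named genes with positive steps, none of them called, were Mgst1, Aldh3a1, Cpe, Stxbp3 and Cd70. Mgst1, a membrane-bound glutathione transferase, read 1171, 1819 and 1617 at 56 days and a narrow 2574, 2696 and 2639 at 112 days (0.80 ± 0.19, adjusted p = 0.206). Its control arrays overlapped, with a step of -0.16, and the difference between the steps was 0.96 ± 0.27 (unadjusted p = 0.00169, adjusted p = 0.648). Aldh3a1, an aldehyde dehydrogenase best known from corneal epithelium, read 132, 416 and 216, then 810, 767 and 1238 (1.93 ± 0.45). Cpe, a carboxypeptidase that trims prohormones, read 3317, 3422 and 3710, then 5377, 5663 and 5783 (0.69 ± 0.18), and its other probe set had 0.74 ± 0.23, also without overlap. Stxbp3, which guides the fusion of glucose transporter vesicles, had 0.61 ± 0.17 and Cd70, a ligand of lymphocytes in the tumour necrosis factor family, 1.59 ± 0.40.

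Among the genes lower at 112 days was Nfix, a transcription factor of the fetal muscle programme. It read 4934, 4642 and 4936 at 56 days and 1662, 2148 and 2049 at 112 days (log2 fold change of -1.31 ± 0.26, adjusted p = 0.0722), and its other probe set (100307_at) had -1.69 ± 0.50. Both probe sets separated the ages. Mknk2, a kinase that phosphorylates the cap-binding factor eIF4E, read 2096, 2055 and 2523, then 974, 852 and 879 (-1.28 ± 0.31), with -0.85 ± 0.24 on its other probe set. Its control arrays overlapped, with steps of -0.21 and 0.21 on the same probe sets, and the unadjusted p of the difference was 0.0246 and 0.00459. Sec31a, part of the coat of vesicles that leave the endoplasmic reticulum, read 1328, 1655 and 1788, then 729, 917 and 1048 (-0.82 ± 0.18), and Clptm1 had -0.78 ± 0.18.

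**Figure D1:**
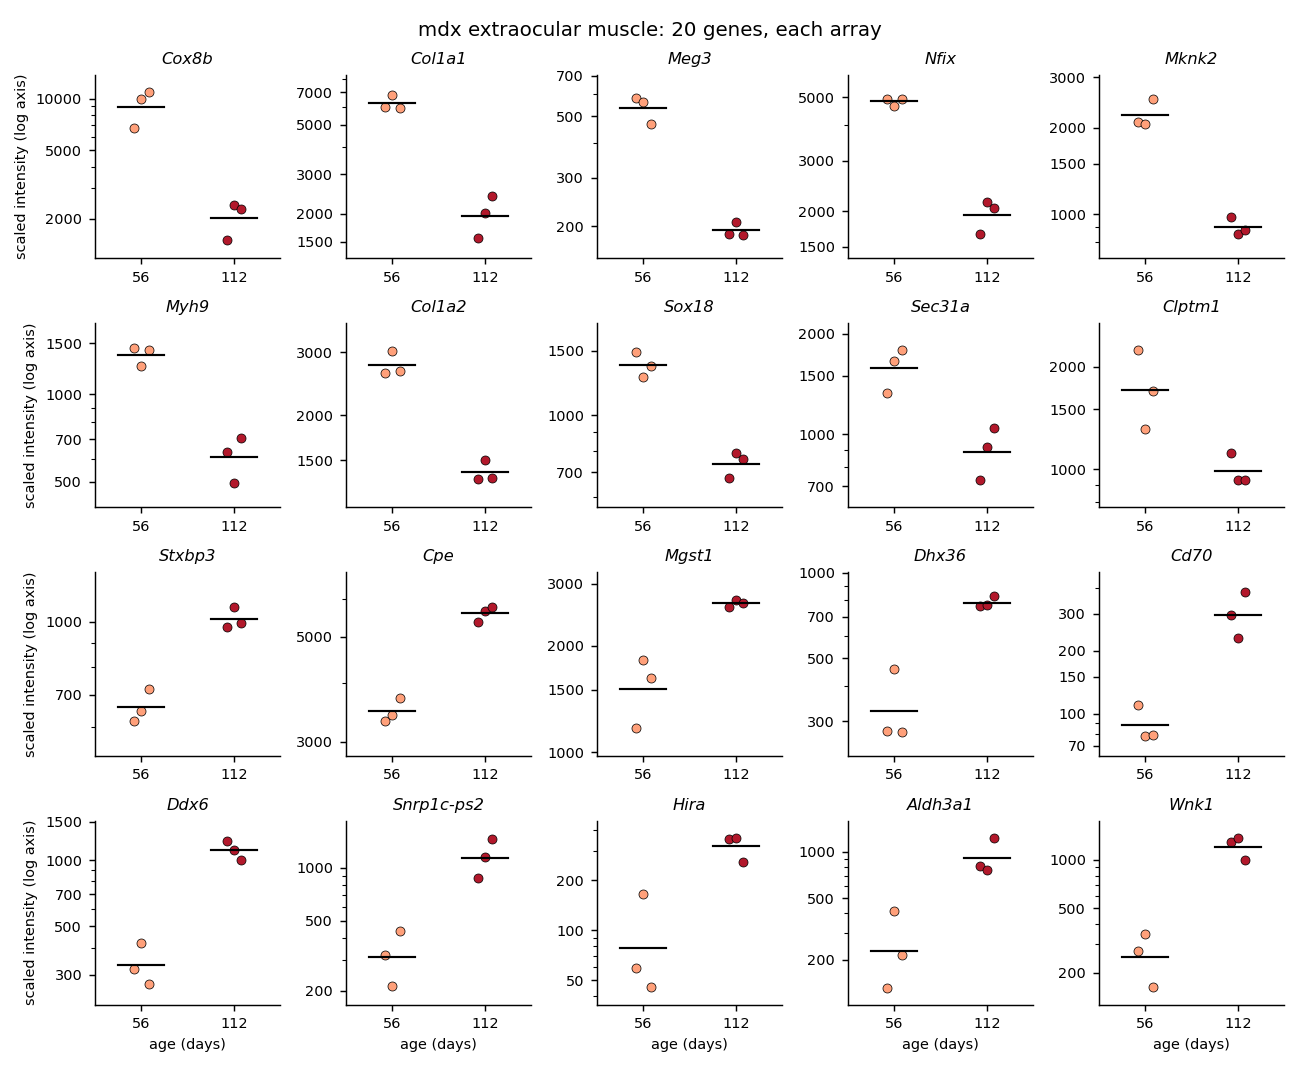
Scaled intensity (log axis) of the 20 named genes on each mdx array at 56 and 112 days; points are arrays and bars the mean of the log2 values of 3 arrays. The arrays of the ages do not overlap in any panel, which the rule required; Meg3 and Myh9 passed the test.

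Several of these genes had another probe set that behaved otherwise, so each value belongs to its probe set. Of the 20 genes, 11 had 13 further tested probe sets, of which 10 had the sign of the named one and 7 were without overlap on its side. Over the 802 genes with 2 tested probe sets, 51.6% had the same sign of the step on both in mdx muscle and 53.5% in control muscle. Cox8b, a subunit of cytochrome c oxidase made in muscle and brown fat, was one such gene: 160851_r_at read 6722, 9887 and 10870 at 56 days and 1496, 2395 and 2268 at 112 days (-2.15 ± 0.43), while 161205_at had 0.52 ± 0.21.

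The step of mdx muscle was set against the same step in control muscle, which uses different arrays. In control muscle 57 probe sets were called (0.765%), 33 higher and 24 lower, and both genes called in mdx muscle were among them. The test of the difference between the steps called 0 of 7453 probe sets (0%) in limma, with 570 at an unadjusted p under 0.05 and 0.56 as the smallest adjusted p. Across the 7453 probe sets, which are not independent replicates, the steps correlated with r = 0.227 and 57.2% had the same sign. Of the 20 named genes 18 had the same sign in control muscle, and 5 were called there: Meg3, Myh9, Wnk1, Col1a2 and Sox18. The unadjusted p of the difference was under 0.05 for 5 (Mgst1, Snrp1c-ps2, Mknk2, Sec31a and Aldh3a1), each with an adjusted p of at least 0.648. The control step is the less firm of the pair: its count was 6 without control 56-day replicate 2 and control 112-day replicate 1, which correlated least with the other arrays, and it ran from 7 without the latter alone to 171 without control 112-day replicate 3.

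**Figure D2:**
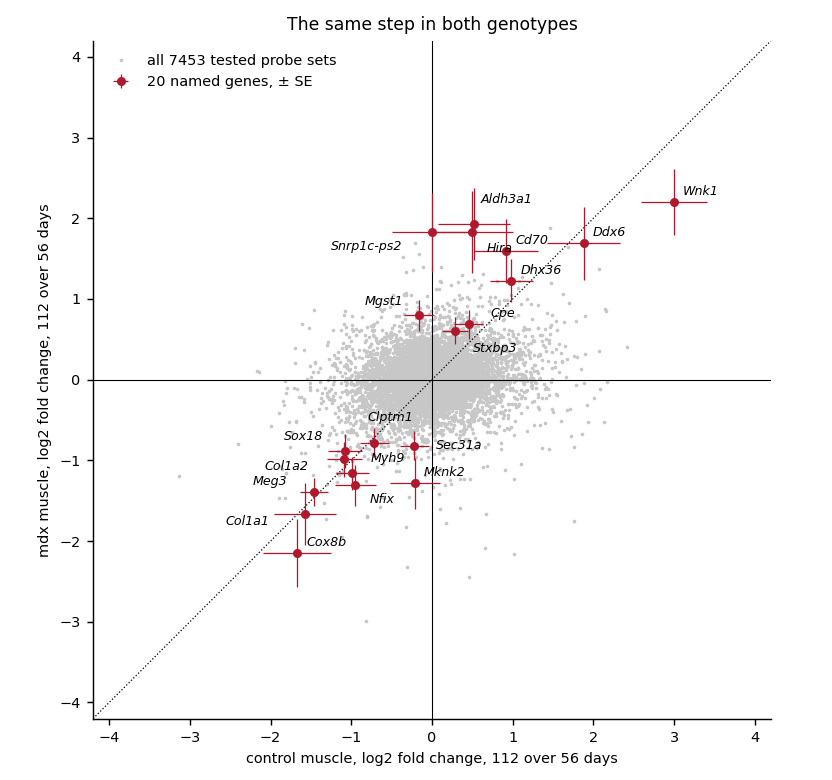
Log2 fold change of 112 over 56 days in mdx muscle (vertical axis) against control muscle (horizontal axis) for the 7453 tested probe sets (grey) and the 20 named genes (red, ± SE); the dotted line marks equal steps. Meg3, Myh9, Col1a1, Col1a2, Sox18 and Ddx6 lie near that line, whereas Mgst1 and Mknk2 lie near 0 on the control axis.

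At 56 days many of the named genes stood at an extreme of the mdx time course. The mean at 56 days lay below those of both 28 and 112 days for 8 of the 10 genes higher at 112 days, and above both for 7 of the 10 lower ones. Meg3, Col1a1 and Col1a2 had descending means from 28 through 56 to 112 days, and Mgst1 and Stxbp3 had ascending means. Wnk1, at 828, 261 and 1218, and Cd70, at 378, 88.8 and 303, had their lowest mean at 56 days, and Sox18, at 672, 1379 and 740, its highest. Since the genes were chosen for their distance between 56 and 112 days, an extreme 56-day value is in part a result of that choice. The control means at 56 days lay beyond both neighbours in the same direction for 5 of the higher and 3 of the lower genes.

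**Figure D3:**
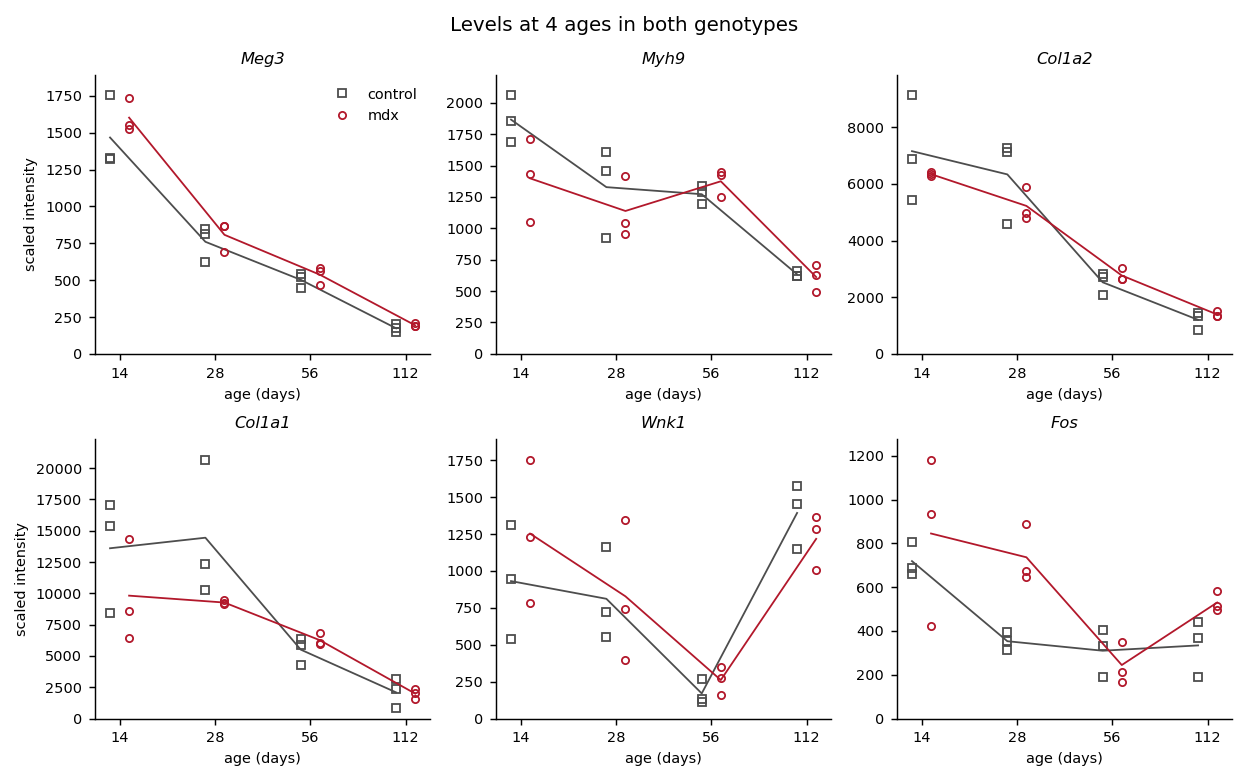
Scaled intensity of 6 genes on every array at 14, 28, 56 and 112 days in control (squares) and mdx (circles) muscle; lines join group means of 3 arrays. From 28 to 112 days the means of Meg3, Col1a1 and Col1a2 descend in both genotypes, while Wnk1 is lowest at 56 days in both.

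Genes of the fibroblast matrix were mostly lower at 112 days. Of the 52 measured genes of this list 41 had a negative log2 fold change, 18 had all 3 later arrays below the earlier ones and 1 above, and 0 were called, against 10.4% and 12.8% without overlap over all probe sets. The median was -0.26, against 0.03 over all. The summed level of the list lay between 86650 and 91970 on the 56-day arrays and between 67790 and 75830 on the 112-day arrays. In control muscle the median was -0.47, with 4 of the 52 called lower, and 36 of the 52 were negative in both genotypes. In RNA from whole muscle, fewer cells of a type and less RNA per cell cannot be told apart.

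Fibrillar collagens led this list. Col1a2, a chain of type I collagen, read 2629, 3017 and 2654 at 56 days and 1330, 1501 and 1339 at 112 days (Col1a2 101130_at, log2 fold change of -0.98 ± 0.22, adjusted p = 0.136). Col1a1, the other chain, read 6035, 6799 and 5940, then 1562, 2010 and 2397 (Col1a1 94305_at, -1.66 ± 0.38, adjusted p = 0.168). The ages were far apart for both, but their further probe sets gave 0.01 ± 0.27 for Col1a2 (161156_r_at) and -0.15 ± 0.21 for Col1a1 (103709_at). Both passed with an adjusted p of 0.0431 and 0.0476 after quantile normalization, and with 0.0129 and 0.0269 when the 12 mdx arrays alone were fitted.

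Other matrix genes had smaller steps. Col5a2, a minor fibril collagen, read 1390, 1628 and 1221, then 745, 994 and 939 (-0.65 ± 0.23), and Col8a1, of short-chain type VIII collagen, 356, 356 and 327, then 257, 202 and 212 (-0.60 ± 0.22). Col8a1 had 0.19 in control muscle (unadjusted p of the difference 0.0178). Col3a1, of type III collagen, and Eln, of elastin, which were picked after their values were seen, had -0.67 ± 0.28 and -0.83 ± 0.31. In control muscle Col1a2, Col3a1, Col5a2 and Sparc were the 4 called lower. Of 16 measured matrix proteases and inhibitors 0 were called, with a median of 0.08: Mmp3, stromelysin, read 252, 262 and 261, then 521, 582 and 447 (0.95 ± 0.43), and Timp2, a protease inhibitor, had -0.62 ± 0.31.

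Immediate early genes, which cells switch on within minutes of a stimulus, were mostly higher at 112 days. Of 35 measured, 27 had a positive log2 fold change, 14 had later arrays above the earlier ones and 5 below, and 0 were called. Over all probe sets 12.8% lay above and 10.4% below, a share near that of the 5. The median was 0.29, against 0.03 for control muscle and 0.03 over all probe sets. Fos, a subunit of the AP-1 transcription factor, read 167, 352 and 214 at 56 days and 493, 580 and 516 at 112 days (1.13 ± 0.34, adjusted p = 0.436). Its 112-day arrays formed a narrow group above a wide 56-day group. Fos had 0.09 in control muscle, where the ages overlapped, and the unadjusted p of the difference was 0.0425.

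Dusp1, a phosphatase that turns off stress kinases, read 1651, 3015 and 2663 at 56 days and 3295, 3970 and 3644 at 112 days (0.61 ± 0.25). Zfp36l1, which destabilizes messenger RNA, read 1210, 1393 and 1533, then 1777, 2401 and 2168 (0.61 ± 0.25). Egr2, a zinc finger factor also used by Schwann cells, read 376, 364 and 392, then 517, 540 and 470 (0.41 ± 0.19). All 3 separated the ages in mdx muscle. In control muscle they had steps of -0.20, -0.17 and -0.32, with overlap, and the adjusted p of the difference in limma was 0.649 for each. The control arrays of Zfp36l1 read 1273, 1504 and 1947 at 56 days and 827, 1536 and 2036 at 112 days. Those of Egr2 read 360, 486 and 389, then 221, 369 and 417. In both genes control 112-day replicate 1 was the lowest of these arrays. Klf9, a target of glucocorticoids, had 0.46 ± 0.20 with overlap, and its other probe set had -0.37 ± 0.43. Mean Fos levels in mdx muscle were 845 at 14 days and 736 at 28 days, then 244 and 530 at the later ages. How these samples were collected is not given in the sources used here, and its part in the levels of these genes was not tested.

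**Figure D4:**
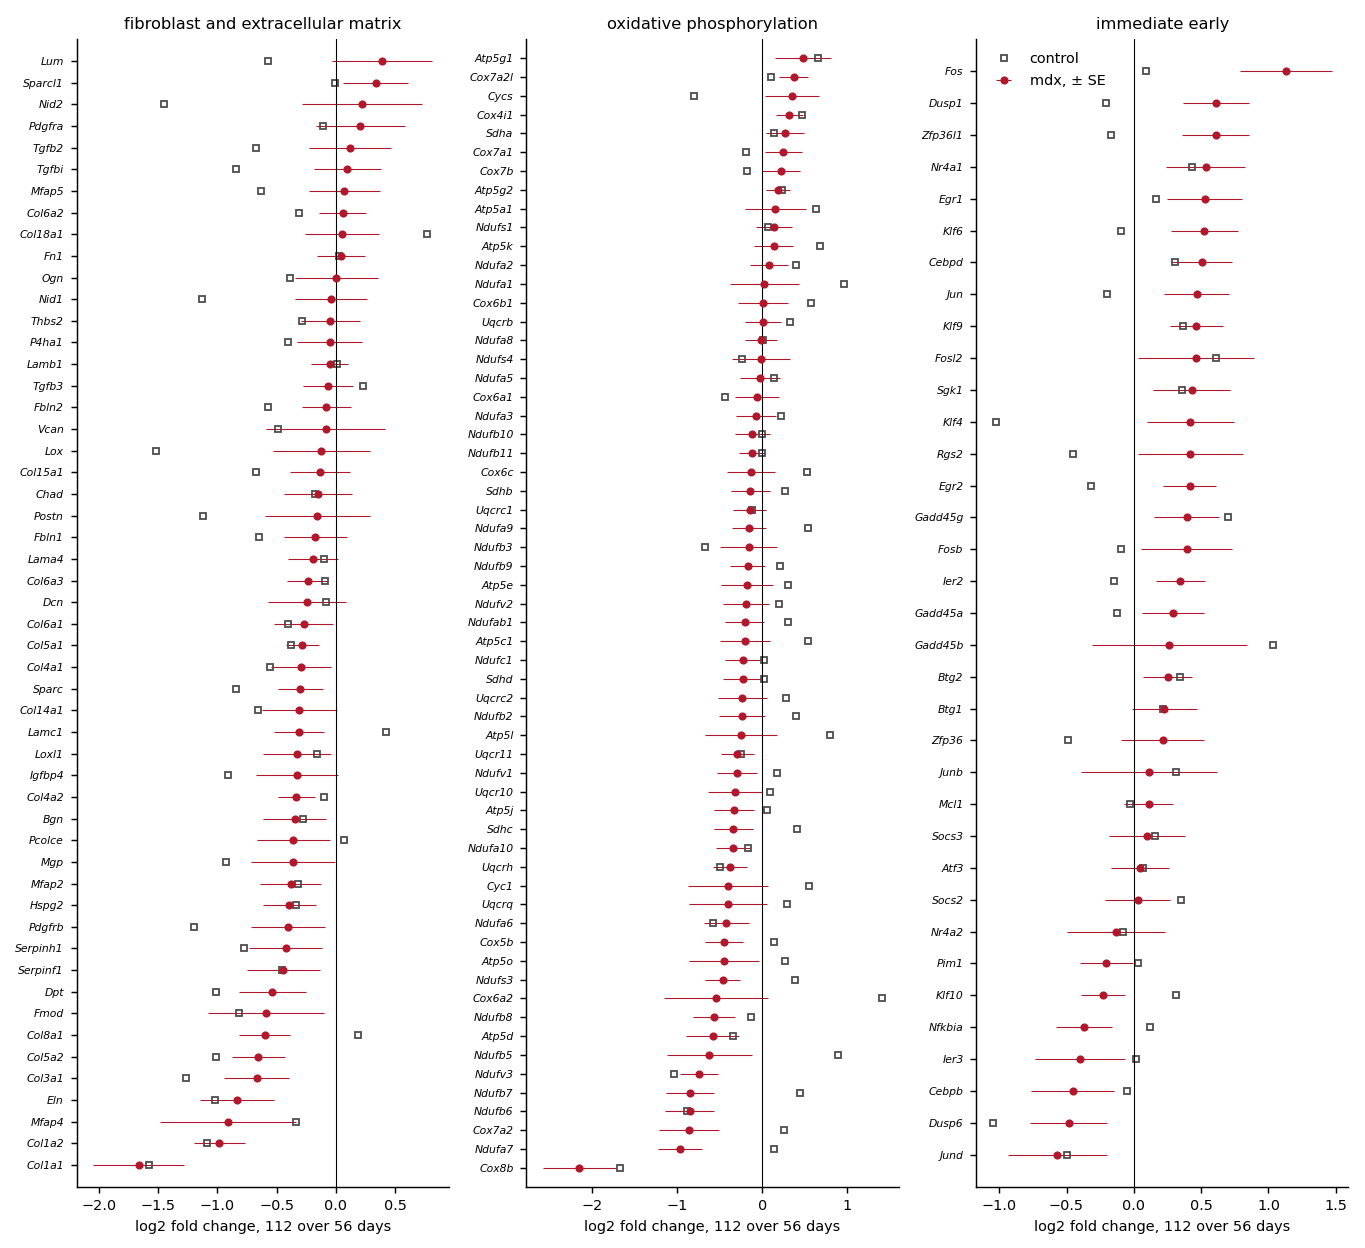
Log2 fold change of 112 over 56 days for every measured gene of 3 lists, in mdx muscle (red, ± SE) and control muscle (open squares). In mdx muscle 41 of 52 matrix genes and 45 of 60 genes of oxidative phosphorylation lie left of 0 and 27 of 35 immediate early genes right of it; none was called.

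Genes of the respiratory chain were mostly lower in mdx muscle. Of 60 measured genes of oxidative phosphorylation 45 were negative, 23 had later arrays below the earlier ones and 3 above (10.4% and 12.8% over all probe sets), and 0 were called. The median was -0.20, against 0.19 in control muscle. Ndufa7, a subunit of complex I, read 11890, 8446 and 8514 at 56 days and 5145, 4790 and 4632 at 112 days (-0.97 ± 0.26, adjusted p = 0.352), and had 0.14 in control muscle. Ndufb7, of the same complex, had -0.85 ± 0.28 in mdx and 0.45 in control muscle, with an unadjusted p of the difference of 0.00378. Ndufv3, also of complex I, had -0.74 ± 0.23 in mdx and -1.04 in control muscle.

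Brightness moved with this list. Of its 60 probe sets 45 were among the brightest 5% of those tested, and in that brightest class 237 of 373 (63.5%) were lower in mdx muscle, with a median of -0.14, against 0.15 in control muscle. In the 4 dimmer classes the mdx median lay between 0.03 and 0.05. After quantile normalization the median of oxidative phosphorylation was -0.01, and -0.09 once the fit held the brightest signal per array as a term. The part of brightness in the result was not tested further.

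The contractile genes shared this position, with 11 of 16 fast and 9 of 15 slow isoform genes in the brightest 5%. Of the fast isoforms 12 of 16 were negative (median -0.37, 0.46 in control muscle, -0.16 after quantile normalization, -0.10 without 112-day replicate 3), and of the slow ones 12 of 15 (median -0.33, -0.03 in control muscle); 0 were called in either. Tpm3, the slow tropomyosin, read 13900, 7623 and 6205 at 56 days and 2257, 1540 and 1125 at 112 days (-2.45 ± 0.70, adjusted p = 0.415). Myl1, the fast alkali light chain, read 14860, 6330 and 4907, then 4288, 2670 and 430 (-2.16 ± 1.00). In both genes replicate 1 was the brightest array of its age. Pvalb, the calcium buffer of fast fibres, had -2.99 ± 1.21 on 96719_i_at and 0.61 ± 0.26 on 96720_f_at, both without overlap and in opposite directions.

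Apart from Myh9, no myosin heavy chain was called. The ages overlapped for Myh3 and Myh8: Myh3 had 0.10 ± 0.94 and Myh8 0.26 ± 0.50. Myh1, of fast IIX fibres, read 16740, 12990 and 11700 at 56 days and 11620, 10680 and 8782 at 112 days (-0.41 ± 0.35, adjusted p = 0.95), a narrow separation. Myh4, of IIB fibres, had -0.27 ± 0.73 on its bright probe set and 0.25 ± 0.27 on 161545_r_at, both without overlap and in opposite directions. Myh7, the slow chain, had -0.05 ± 0.19 on its bright probe set and -0.80 ± 0.40 on 161547_f_at, with overlap in both. Myh6, the atrial chain, had 0.13 ± 0.52 and Myh14, a non-muscle chain, -0.11 ± 0.18. The embryonic light chain gene Myl4 had 0.44 ± 0.27 and -0.28 ± 0.23 on its probe sets, with overlap in both.

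Of 16 measured genes of the dystrophin complex 0 were called, and the median was -0.10. Dag1, dystroglycan, which carries dystrophin at the membrane, read 5793, 5976 and 6613 at 56 days and 4290, 4510 and 4809 at 112 days (-0.43 ± 0.19, adjusted p = 0.753), and 0.16 ± 0.24 on its other probe set. Dtna, dystrobrevin, had 0.33 ± 0.25. Utrn, the dystrophin relative that can stand in for it, had -0.37 ± 0.50 and -0.53 ± 0.54, with overlap on both probe sets. Of 31 measured genes of myogenic regeneration 22 were negative and 0 called (median -0.15, -0.17 in control muscle). Without overlap were 9 below and 2 above, against 10.4% and 12.8% over all probe sets. The summed level of this list was 56540 to 57760 at 56 days and 49660 to 53030 at 112 days. Myod1, the factor that commits satellite cells, read 1188, 982 and 932, then 730, 844 and 739 (-0.41 ± 0.17), and Mef2c, a later muscle factor, had -0.44 ± 0.26.

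At the junction of nerve and muscle 11 of 16 genes were negative and 0 called. Ache, the acetylcholinesterase of the synapse, read 1601, 1396 and 1680 at 56 days and 538, 715 and 843 at 112 days, far apart (-1.16 ± 0.32, adjusted p = 0.39), and had -1.13 in control muscle. Rapsn, which clusters the receptor, had -0.34 ± 0.17 and Chrne, its adult subunit, -0.42 ± 0.25. Of the 14 nerve genes 8 were positive and 0 called (median 0.06). Without overlap were 1 above and 2 below, against 12.8% and 10.4% over all probe sets. Tubb3, a neuronal tubulin, had -0.57 ± 0.17 on 160462_f_at and 0.10 ± 0.40 on 161612_f_at, and Egr2, given above, is also in this list.

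Macrophage genes were split in direction. Of 30 measured macrophage genes 18 were positive, 1 was without overlap above and 2 below, both under the shares of 12.8% and 10.4% over all probe sets, and 0 were called, with a median of 0.06. The summed level of the list was 26350 to 30450 at 56 days and 25240 to 28990 at 112 days, which overlap. Ccl8, a chemokine, read 449, 310 and 222, then 636, 637 and 559 (0.92 ± 0.48), whereas C1qa, of complement, had -0.50 ± 0.30 and Ccr2, the monocyte chemokine receptor, -0.43 ± 0.27. Of 8 measured lymphocyte genes 0 were called. Ctsb, a lysosomal protease, had -0.33 ± 0.20 on its brightest probe set and 1.65 ± 0.62 on its dimmest.

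Of 36 genes of antigen presentation and interferon 25 were negative and 0 called. H2-K1, a class I antigen-presenting gene, read 4463, 3169 and 3547 at 56 days and 5507, 5233 and 4717 at 112 days (0.48 ± 0.17), and H2-D1, another, had 0.43 ± 0.21, both with probe sets that may match other class I genes. Interferon-induced Ifit3 read 755, 243 and 816, then 141, 289 and 154 (-1.45 ± 0.44), where 56-day replicate 2 lay among the later arrays. Ifitm3, another interferon-induced gene, read 6229, 3788 and 6172, then 2915, 3588 and 3180 (-0.71 ± 0.29).

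Among 32 genes of endothelium and vessel wall 9 were without overlap above and 6 below, and 0 were called. Over all probe sets these shares were 12.8% and 10.4%. Acta2, smooth muscle actin, read 1118, 1174 and 927 at 56 days and 1689, 2465 and 1960 at 112 days (0.90 ± 0.28), Cnn1, calponin, 123, 94.6 and 75.3, then 241, 308 and 274 (1.37 ± 0.43), and Myh11, the smooth muscle myosin, had 1.22 ± 0.50 with overlap. Cnn1 was not called in mdx muscle but was called higher in control muscle (2.07). Acta2 and Myh11 had 0.26 and 0.10 there, with overlap, and control 112-day replicate 1 was low for both. The control arrays of Acta2 read 1412, 1568 and 1287 at 56 days and 900, 2260 and 2416 at 112 days. Those of Myh11 read 576, 805 and 685, then 195, 1535 and 1260. Sox18, an endothelial transcription factor, read 1492, 1276 and 1369, then 672, 791 and 758 (-0.88 ± 0.21, adjusted p = 0.242), and had -0.63 ± 0.18 on its other probe set and -1.08 in control muscle (adjusted p = 0.0241).

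Genes of surface epithelium differed between the 56-day arrays themselves. Krt4, a keratin of moist epithelia, read 595, 605 and 346, then 1198, 746 and 976 (0.91 ± 0.34). Krt6a, of stressed epithelium, read 289, 1960 and 326, then 1115, 1123 and 1634 (1.12 ± 0.47), and Dsp, desmoplakin, 109, 624 and 81.7, then 392, 420 and 631 (1.29 ± 0.60). Replicate 2 stood above the other 56-day arrays in both of the last. Without it Krt6a was called, with a log2 fold change of 1.99 and an adjusted p of 0.0208. Aldh3a1 had its highest 56-day value on the same array. Of the 17 genes of the list 11 were positive and 6 negative, with a lowest step of -0.57, and 0 were called. Without overlap were 2 above and 3 below, against 12.8% and 10.4% over all probe sets. The median of 0.16 became 0.39 without 56-day replicate 2 and 0.00 without 56-day replicate 1. The summed level of the list was 8607 to 11210 at 56 days and 9964 to 10740 at 112 days, and the part of epithelium next to the muscle in these values was not tested.

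Signalling and clock genes gave some of the remaining steps. Of 45 measured genes of growth factor and TGF beta signalling 30 were negative, 12 without overlap below and 3 above (over all probe sets 10.4% and 12.8%), and 0 were called (median -0.09). Igf1r, the receptor of insulin-like growth factor, read 1332, 1512 and 1168 at 56 days and 819, 613 and 614 at 112 days (-0.96 ± 0.27, adjusted p = 0.413). Akt1, a kinase downstream of it, had -0.48 ± 0.18, and Pdgfa, a platelet-derived growth factor, -0.53 ± 0.18. Bmpr2, a receptor of bone morphogenetic proteins, had 0.90 ± 0.33 against -0.52 in control muscle. In limma the p of this difference was 0.00628 unadjusted and 0.649 adjusted. The control arrays of Bmpr2 overlapped, with 197, 587 and 366 at 56 days and 326, 183 and 229 at 112 days.

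Of 19 clock genes 11 were negative and 0 called. Nr1d1, the repressor REV-ERB alpha, read 1266, 1651 and 1899, then 1109, 1028 and 1081 (-0.56 ± 0.21). Tef, a clock output factor, had -0.61 ± 0.24 against 0.42 in control muscle, and Usp2, a deubiquitinase, -0.44 ± 0.21 and -0.02 ± 0.24 on its probe sets. Tfrc, the transferrin receptor, counted in this list as an output gene, read 5609, 4987 and 3382, then 2557, 2761 and 2593 (-0.79 ± 0.24, adjusted p = 0.436), and had -0.63 in control muscle. The time of day of collection is not given in the sources used here.

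In lipid and energy use beyond the respiratory chain, 25 of 43 genes that burn fatty acids or serve the citric acid cycle were positive and 0 called (median 0.05). Ppargc1a, a coactivator of mitochondrial genes, read 165, 106 and 135, then 175, 296 and 296 (0.83 ± 0.38). Ppara, a receptor for fatty acids, had 0.48 ± 0.23, and Eci1, an enzyme of unsaturated fat oxidation, -0.46 ± 0.21. Cd36, a fatty acid carrier, read 571, 820 and 836, then 991, 1197 and 1221 (0.62 ± 0.30) against -0.72 in control muscle. Its control arrays overlapped, with 1336, 1422 and 1647 at 56 days and 433.5, 1474 and 1071 at 112 days. The adjusted p of the difference in limma was 0.649. Of 36 proteasome and atrophy genes 21 were positive and 0 called (median 0.05), with Psmc6 at 0.36 ± 0.16.

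**Figure D5:**
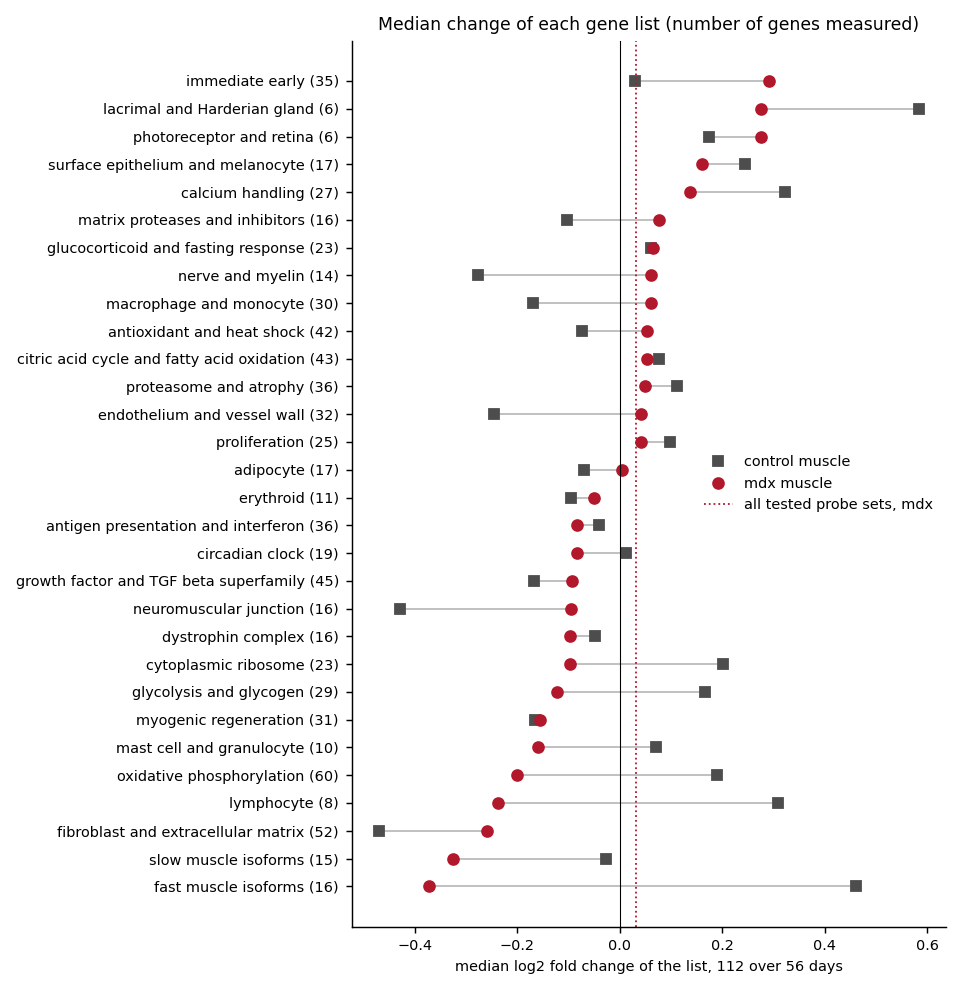
Median log2 fold change of 112 over 56 days for each of 30 gene lists in mdx (circles) and control (squares) muscle; the dotted line marks the median over all tested probe sets in mdx muscle. The matrix list is below 0 in both genotypes, both contractile lists are the lowest in mdx muscle, and the immediate early list is the highest there.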

How the data were processed

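Total RNA of mouse extraocular muscle was measured on 24 one-colour Affymetrix arrays, 3 in each of 8 groups of genotype and age taken from the sample titles. The deposited values are linear intensities, 1 per probe set and array, which the authors made from the scanned arrays; the sources used here name no scanner software. Values under 1 were set to 1 (44 values), each array was scaled to a mean of 500 without its lowest and highest 2%, 16 was added and log2 taken, so that fold changes of dim probe sets are understated. The manufacturer's 66 controls were dropped, and testing was limited to the probe sets whose average log2 level reached the 40th percentile, an intensity of 126. Gene names came from the platform annotation: 10833 probe sets had 1 symbol, 396 several and 1193 none.

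A limma model (3.58.1, R 4.3.3) with 8 group means used all 24 arrays (residual degrees of freedom 16, variance trend on). P-values are two-sided, with adjustment by Benjamini-Hochberg over all 7453 probe sets, and probe sets were called at an adjusted p under 0.05. Errors in parentheses are SE of log2 fold changes unless SD is named. The script was tested on simulated data. The number of arrays limits the precision.

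Named genes are the called ones without overlap between ages (up to 15 a direction), filled to 10 a direction by the smallest p, up to 4 of smallest p from each list, and Dmd, Utrn, Myl4 and the myosin heavy chains. A list holds a gene's brightest tested probe set. The members and the 31 lists were chosen with earlier results of these data known. Alternatives covered offset, filter, normalization, arrays in the fit, variance model, pairing, technical covariates and leaving out each array.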

Additional observations from a re-analysis of the deposited data

How the results depend on the processing

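The count of probe sets higher at 112 days in mdx muscle, 0, became 1 with the 60th percentile filter, 1 with the largest signal as a covariate, 20 with the 6 mdx arrays alone, 122 with array weights, and 0 to 1 when any 1 mdx array was left out (1 without 56-day replicate 2). The count lower, 2, became 1 with no filter, median scaling, no variance trend or without the control arrays that stood apart, 5 with quantile normalization, 6 with the largest signal, 47 with the 6 arrays, 135 with array weights, and 1 to 1 without any 1 mdx array. Meg3 passed in every alternative; Myh9 was the call lost, with adjusted p from 0.0509 to 0.372 over the alternatives that lost it. With the replicate number as a block (replicate block) the counts were 0 higher, 1 lower and 0 for the difference of steps. Deviations of arrays of the same number correlated with a low r of 0.0941, -0.0174 and 0.0683. The labels do not say whether these numbers pair the arrays. The difference of steps, 0, became 1 with no filter, 10 with array weights and 0 to 1 without 1 array (1 without control 56-day replicate 1). The control count, 57, became 34 with the 60th percentile filter, 6 without the arrays that stood apart, 422 with array weights, 20 and 18 with the largest signal or the 3 to 5 prime ratio as a covariate, and 7 to 171 without 1 control array. Signs turned, with no call, for Myh3 160753_at (-0.0111 to 0.1915 without 1 mdx array), Myh6 101071_at (-0.0586 to 0.2941) and Myh7 98616_f_at (-0.1001 to 0.0300, and 0.1482 with quantile normalization). The cause of these moves was not tested. Over the named genes and these alternatives, 1749 values kept their direction and side of the threshold, 80 passed it newly and 12, all Myh9, lost it.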

Other observations

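Genes with parent-of-origin expression were gathered after the values of Meg3 were seen, so the list has no test. Of 17 measured, 13 had a negative step in mdx muscle and 13 in control muscle, with medians of -0.15 and -0.65. Dlk1, the protein-coding neighbour of Meg3 in the same imprinted region, had -0.15 ± 0.23, and its ages overlapped. Igf2, a fetal growth factor, had -0.51 ± 0.75 and Gnas, a G protein subunit, -0.69 ± 0.36, both with the later arrays below the earlier ones. Peg3, Sgce and Ndn had -0.15, -0.08 and -0.35 in mdx muscle against -1.05, -0.81 and -0.65 in control muscle.

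Genes of non-muscle actomyosin, gathered after the call of Myh9, went both ways: 8 of 16 were negative, 5 without overlap below and 4 above (10.4% and 12.8% over all probe sets), with a median of 0.04. The regulatory light chain gene Myl12b had -0.59 ± 0.23 and the alkali light chain gene Myl6b -0.94 ± 0.32, while Myl9, the light chain of smooth muscle, had 0.62 ± 0.22 and cytoplasmic actin (Actb, probe set 95705_s_at) 0.98 ± 0.30. None of these 4 passed the test of 24 arrays. The manufacturer's control probe set for the 3 prime end of Gapdh read 6198, 473 and 759 on the mdx arrays at 56 days and 1623, 738 and 594 at 112 days, while that for the 5 prime end read 14290, 9157 and 9016, then 8333, 7614 and 6598.

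The probe sets with the smallest p for the difference between the steps, named after their values were seen, were Rab31, a vesicle trafficking GTPase, with 0.80 in mdx and -1.10 in control muscle, and Tnni2, the fast troponin I, with -0.10 and 1.28. Their unadjusted p was 8.82e-05 and 0.000162 and their adjusted p 0.56.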
